A study of Mus musculus with 9 samples.

Results

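The genes of the MHC class I peptide loading machinery were followed in RENCA cells, a line of mouse renal carcinoma cells derived from a BALB/c mouse. The set was the rows of the deposited gene table whose symbol is B2m, Tap1, Tap2, Tapbp, Tapbpl, Pdia3, Calr, Canx, Erap1 or Nlrc5. All 10 symbols were found among the 54532 genes of the table, each as 1 row, and all 10 were among the 13326 genes with enough counts to be tested. The 3 forms of the line were sequenced as poly(A)-selected RNA, with 3 libraries in each. Rescue cells (RES) are knockout cells in which Ndufa4l2 was stably put back from a lentiviral vector, with selection in puromycin at 1.5 ug/mL. Knockout cells (KO, genotype NDUFA4L2 -/-) were edited with Cas9 and a single guide carried on the plasmid PX458, grown from single-cell colonies and chosen by qPCR. Empty-vector cells (EVP, genotype WT) carried the vector alone; which vector is not stated. Rescue and knockout cells therefore share the edit, the number of clones behind them is not stated, and a clone can differ from its parent line in ways that the edit did not make.

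MHC class I molecules show peptides from inside the cell to CD8 T cells. Peptides made by the proteasome are pumped into the endoplasmic reticulum (ER) by a transporter of 2 chains, TAP1 and TAP2. Tapasin, the product of Tapbp, holds empty class I molecules next to this transporter and helps to choose peptides that bind well, and ERp57 (from Pdia3) and calreticulin (from Calr) complete that loading complex. Calnexin (from Canx) holds the heavy chain while it folds, beta-2-microglobulin (from B2m) is the light chain of every class I molecule, the aminopeptidase from Erap1 trims peptides to length, and TAPBPR (from Tapbpl) is a relative of tapasin that edits peptides outside the loading complex. Nlrc5 encodes a transcriptional activator of class I genes. Tumour cells often have low levels of this machinery. Ndufa4l2 encodes a mitochondrial protein related to a subunit of the respiratory chain.

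Library totals ranged from 13106531 to 26643877 counts. Ndufa4l2, the edited gene, had 73, 48 and 35 counts in rescue libraries, 7, 8 and 6 in knockout libraries and 12, 6 and 16 in empty-vector libraries. It was higher in rescue than in knockout (log2 fold change 2.57 ± 0.34 SE, adjusted p = 2.1e-06) and than in empty vector (2.20 ± 0.30, 4.61-fold, adjusted p = 8.0e-06), so rescue cells held more of its mRNA than the control line. Its change in knockout against empty vector did not pass the test (-0.36 ± 0.42, adjusted p = 0.47). With at most 16 counts in empty-vector libraries, a loss of this mRNA in knockout could hardly be seen. These counts therefore cannot show whether the edit took effect, which was not tested here. Of the markers of the line, Krt8 had 4096 to 13409 counts per library and Cdh16 4359 to 17207, while Krt19 and Epcam had at most 5 counts. The summed level of the 10 epithelial and renal tubule markers was 1326.5 to 1377 CPM (counts scaled to a common library size) in rescue libraries, 1608.5 to 1736 in knockout libraries and 992 to 1217 in empty-vector libraries. Of its 8 tested genes, 5 were higher and 3 lower in knockout against empty vector, and 3 were higher and 3 lower in rescue against knockout. Across all tested genes, 29.5% were higher and 31.1% lower in the first comparison, and 29.5% and 27.3% in the second. Cdh1, of epithelial junctions, had 3.05 ± 0.14 and -5.31 ± 0.18 on the log2 scale in these comparisons (adjusted p = 2.3e-09 and 1.1e-10), and Pax8, a renal lineage factor, had -1.26 ± 0.07 and 0.74 ± 0.07 (adjusted p = 1.6e-11 and 2.5e-08). Of 18 leukocyte markers, 6 were at 0 in all libraries, Cd3e, Ms4a1, Nkg7, Itgam and Adgre1 among them, and 13 markers, Ptprc and Tyrobp included, had at most 5 counts. The summed level of the leukocyte list, most of it from Cd68, was 39.7 to 45.3 CPM in rescue libraries, 212.2 to 228.5 in knockout libraries and 78.6 to 84.7 in empty-vector libraries. Its 4 tested genes were higher in knockout than in empty vector and lower in rescue than in knockout. The summed level of 9 endothelial and fibroblast markers, of which 3 were at 0 throughout, was 24.7 to 25.8 CPM in rescue, 54.6 to 65.9 in knockout and 25.3 to 31.7 in empty vector, and mitochondrial transcripts took 2.23% to 2.65%, 5.79% to 7.93% and 2.16% to 3.17% of the counts. The part of these shifts in the results below was not tested. In bulk RNA, fewer cells of a kind and less RNA per cell cannot be told apart.

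The sequence before the start site was looked at first, because class I genes are classically controlled there. Promoters of 7 of the 10 genes (B2m, Calr, Canx, Erap1, Pdia3, Tap1 and Tapbp) were found in the RefSeq table for GRCm38.p6, and the 250 bases upstream of each RefSeq start were searched on both strands, beside the same window of all 32851 promoters in that table. For Erap1, Tapbp and Pdia3 that start lies well downstream of the gene start in the deposited table, so all or part of the window is inside the deposited gene. For B2m, Calr and Tap1 the window enters the deposited gene by a few bases only. The 3 windows shown here are those of the light chain gene and of the ER chaperone genes Calr and Canx. The window of Pdia3 is not shown and lacks the element that Calr and Canx share, given below. The letters searched for are in capitals, and each sequence runs 5′ to 3′ on the strand of its gene. In B2m (chr2:122147437-122147686, plus strand) the capitals mark, in order, an interferon-stimulated response element, a kappa-B site, the core of an X2 box and a Y box. In Calr (chr8:84846932-84847181, minus strand) they mark an ER stress response element, whose end is also a Y box, and a further Y box. In Canx (chr11:50325674-50325923, minus strand) they mark an X2 core, a Y box, an ER stress response element that begins with a Y box, another Y box and a second X2 core.
B2m: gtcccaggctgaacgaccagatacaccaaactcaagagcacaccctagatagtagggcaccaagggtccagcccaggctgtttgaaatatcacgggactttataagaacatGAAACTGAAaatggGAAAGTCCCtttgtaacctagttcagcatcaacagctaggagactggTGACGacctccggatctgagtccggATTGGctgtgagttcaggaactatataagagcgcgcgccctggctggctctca
Calr: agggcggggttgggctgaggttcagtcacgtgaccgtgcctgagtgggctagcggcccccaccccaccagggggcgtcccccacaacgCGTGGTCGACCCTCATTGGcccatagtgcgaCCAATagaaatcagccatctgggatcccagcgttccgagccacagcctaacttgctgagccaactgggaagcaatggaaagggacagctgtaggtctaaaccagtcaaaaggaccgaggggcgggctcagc
Canx: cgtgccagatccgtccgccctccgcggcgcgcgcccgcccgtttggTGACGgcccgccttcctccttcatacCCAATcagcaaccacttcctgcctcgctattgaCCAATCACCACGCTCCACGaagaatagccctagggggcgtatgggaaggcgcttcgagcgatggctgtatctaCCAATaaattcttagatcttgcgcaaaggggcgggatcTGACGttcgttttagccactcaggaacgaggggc

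The interferon-stimulated response element (GAAANNGAA) was in the windows of B2m and Erap1, against 7.13% of all promoters. The kappa-B site (GGGNNTTNC) was in B2m only among the 7 windows, against 13.0% of all promoters, and the gamma-activated site (TTCNNNGAA) was in none of the 7, against 7.02%. The X2 core (TGACG) was in Pdia3, B2m, Canx and Tap1, against 17.8%. The Y box (ATTGG) was in 6 of the 7 windows, all but that of Erap1, against 33.8%; it is short, and its letters are also the CCAAT end of the ER stress response element. That element (CCAAT, 9 bases of any kind, then CCACG) was in Calr and Canx, and in 37 promoters of the table in all (0.113%). The window of Tapbp held 2 Y boxes and none of the other motifs. A match describes the letters only, and no binding was measured here.

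All the genes were present in every library, over a wide range of levels. On the deposited FPKM scale, which is per kilobase of gene and so allows genes to be compared, Calr was highest in each group, with a mean of 496 ± 29.0 FPKM in rescue, 811 ± 32.7 in knockout and 442 ± 62.6 in empty vector (SD, n = 3 each). Nlrc5 was lowest, with 0.0396 ± 0.00925 FPKM in rescue, 0.246 ± 0.0153 in knockout and 0.347 ± 0.16 in empty vector. In knockout cells the order from high to low was Calr, B2m, Pdia3, Tapbp, Canx, Tap2, Tap1, Erap1, Tapbpl and Nlrc5, and no neighbours in that order overlapped. Tapbp stood at 43.1 ± 3.78 FPKM in rescue, 212 ± 9.16 FPKM in knockout and 47.3 ± 5.94 FPKM in empty vector, and Canx at 91.7 ± 0.881, 143 ± 11.3 and 89.8 ± 15.1 FPKM in the same groups, so that Tapbp lay above Canx in knockout alone of the 3 groups. The values of Pdia3 and B2m overlapped in rescue, those of Calr and B2m overlapped in empty vector, and those of Erap1 and Tapbpl overlapped in both.

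**Figure D1:**
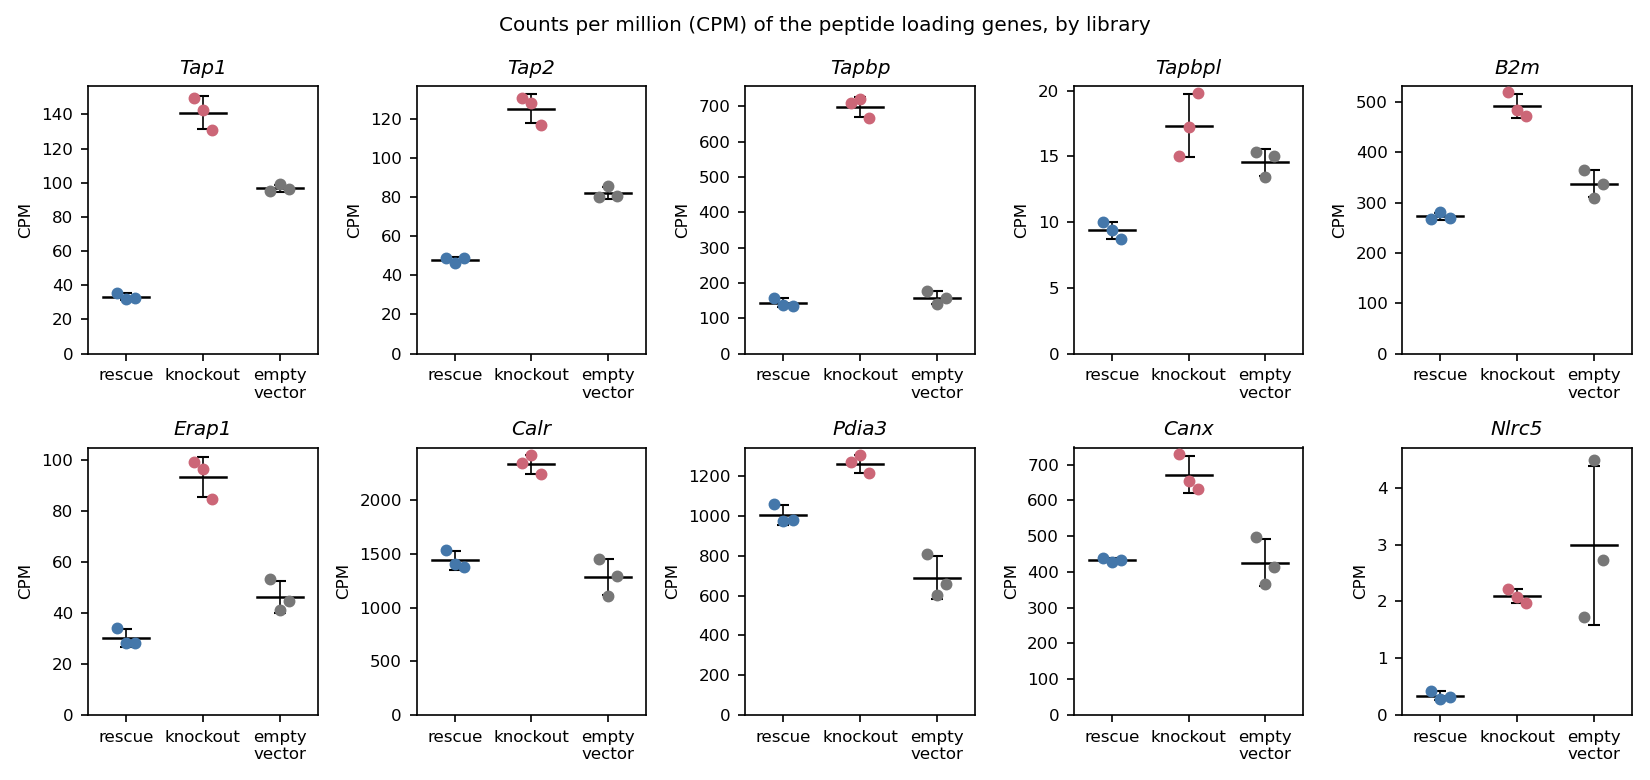
CPM of each gene in every library, with rescue, knockout and empty vector from left to right in each panel; points are libraries, the horizontal line is the mean and the bar is the SD (n = 3). Knockout libraries lie highest for 8 of the genes and overlap empty vector for Tapbpl and Nlrc5, and those of Tapbp lie between 667 and 722 CPM, against at most 176 CPM in both other groups.

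Knockout cells held more mRNA of most of the loading machinery than empty-vector cells. Of the 10 genes, 8 were higher in knockout (edgeR quasi-likelihood test, Benjamini-Hochberg adjusted p under 0.05) and 2, Tapbpl and Nlrc5, were not called; the same 8 had no overlap between the libraries of the groups. The median log2 fold change of the 10 was 0.63, against -0.02 over all tested genes. This stands beside a broad difference between the lines: 29.5% of all tested genes were called higher and 31.1% lower, and 63.7% had no overlap. Relative to that background most of the individual changes were moderate in size. Tapbp stood out, since 2.44% of tested genes had a larger absolute change; the share was 12.2% to 64.2% for the other 9 genes.

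Tapbp had 158, 137 and 134 CPM in rescue libraries, 709, 722 and 667 CPM in knockout libraries and 176, 140.0 and 157 CPM in empty-vector libraries. Rescue and empty-vector libraries overlapped, and every knockout library lay far above both. The gene rose in knockout against empty vector by 2.15 ± 0.08 on the log2 scale (SE; 4.43-fold, adjusted p = 1.4e-13, edgeR) and fell by 2.29 on the log2 scale in rescue against knockout (SE 0.08, 4.88-fold lower, adjusted p = 4.5e-14). In rescue against empty vector the difference was -0.14 ± 0.08 (adjusted p = 0.17), and it passed the test when empty-vector replicate 2 was left out (-0.22, adjusted p = 0.029). Tapbp lies at chr17:33915899-33929288 (plus strand) in the deposited table. It overlaps Zbtb22 on the same strand over 3421 bases near its start, where the annotated transcripts Tapbp-203 and Tapbp-209 begin, so reads there could be counted for either gene. Zbtb22 itself had a mean of 36.5 CPM in rescue, 40.4 CPM in knockout and 32.0 CPM in empty vector, with a log2 fold change of 0.33 ± 0.08 in knockout against empty vector (adjusted p = 0.001), a fraction of the level and the change of Tapbp.

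The transporter genes Tap1 and Tap2 lie 15974 bases apart, start to start, on chromosome 17. Tap1 (chr17:34187553-34197225, plus strand) had 35.7, 32.1 and 32.3 CPM in rescue libraries, 149.8, 143 and 131 CPM in knockout libraries and 95.0, 99.0 and 96.6 CPM in empty-vector libraries. Tap2 (chr17:34203527-34216321, plus strand) had 48.7, 46.3 and 48.7 CPM in rescue libraries, 130.4, 128 and 117 CPM in knockout libraries and 80.0, 85.7 and 80.5 CPM in empty-vector libraries. For both genes the 3 groups were fully apart, with knockout highest and rescue lowest. In knockout against empty vector the log2 fold changes were close, at 0.54 ± 0.06 for Tap1 (adjusted p = 5.1e-07) and 0.61 ± 0.06 for Tap2 (adjusted p = 6.9e-08). In rescue against knockout they were -2.07 ± 0.07 for Tap1 (4.2-fold lower, adjusted p = 8.2e-15) and -1.38 ± 0.06 for Tap2 (adjusted p = 1.1e-12). Rescue cells therefore lay below empty-vector cells as well, by -1.53 ± 0.07 on the log2 scale for Tap1 (2.89-fold lower, adjusted p = 5.3e-12) and -0.78 ± 0.06 for Tap2 (adjusted p = 1.3e-08).

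B2m, the light chain gene (chr2:122147686-122153083, plus strand), had 267, 281 and 270.2 CPM in rescue libraries, 519, 483 and 472 CPM in knockout libraries and 365, 310.0 and 337 CPM in empty-vector libraries. The groups did not overlap and had the same order as for Tap1 and Tap2, over a narrower range. The log2 fold changes were 0.54 ± 0.07 in knockout against empty vector (adjusted p = 1.2e-06), -0.85 ± 0.07 in rescue against knockout (adjusted p = 3.4e-09) and -0.31 ± 0.07 in rescue against empty vector (adjusted p = 0.0011). Erap1, the trimming peptidase (chr13:74639568-74693201, plus strand), had 34.2, 28.1 and 28.3 CPM in rescue libraries, 99.3, 96.4 and 84.6 CPM in knockout libraries and 53.4, 41.2 and 44.6 CPM in empty-vector libraries. It too ran from rescue at the bottom to knockout at the top, with no overlap. Its log2 fold changes were 1.00 ± 0.10 in knockout against empty vector (adjusted p = 4.0e-07), -1.62 ± 0.10 in rescue against knockout (adjusted p = 3.0e-09) and -0.61 ± 0.10 in rescue against empty vector (adjusted p = 1.7e-04). Erap1 overlaps Cast on the opposite strand over 834 bases, and Cast had 449 to 1624 counts per library. Whether counting used strand is not stated, so some reads there may belong to Cast.

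The chaperones of the ER, which serve many other glycoproteins as well, changed less between rescue and knockout. Calr (chr8:84841850-84846934, minus strand) had 1537, 1403 and 1377 CPM in rescue libraries, 2344.5, 2418 and 2239.6 CPM in knockout libraries and 1451, 1112 and 1297.5 CPM in empty-vector libraries. Canx (chr11:50293961-50325673, minus strand) had 439, 429 and 433 CPM in rescue libraries, 729, 655 and 631 CPM in knockout libraries and 499, 367 and 413 CPM in empty-vector libraries. For both, rescue and empty-vector libraries overlapped and knockout libraries were highest. The rise in knockout against empty vector was 0.86 ± 0.09 for Calr (adjusted p = 9.5e-08) and 0.66 ± 0.09 for Canx (adjusted p = 6.1e-06), and the log2 fold change in rescue against knockout was -0.70 ± 0.09 for Calr (adjusted p = 1.6e-06) and -0.63 ± 0.09 for Canx (adjusted p = 1.1e-05). In rescue against empty vector neither passed the test, at 0.16 ± 0.09 for Calr (adjusted p = 0.14) and 0.02 ± 0.09 for Canx (adjusted p = 0.85). Without empty-vector replicate 1, whose values are the highest of its group for both genes, both did, at 0.28 for Calr (adjusted p = 7.9e-04) and 0.18 for Canx (adjusted p = 0.021); Calr also did with libraries scaled by their totals only (0.19, adjusted p = 0.035).

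Pdia3 (chr2:121413775-121438687, plus strand), the partner of calreticulin and calnexin, was the gene whose rescue values stayed nearest to knockout. It had 1061, 974 and 979 CPM in rescue libraries, 1269.8, 1305.5 and 1216 CPM in knockout libraries and 811, 601.5 and 660.0 CPM in empty-vector libraries. Rescue lay between the other groups with no overlap on either side. The log2 fold changes were 0.87 ± 0.09 in knockout against empty vector (adjusted p = 9.1e-08), -0.33 ± 0.09 in rescue against knockout (adjusted p = 0.0037) and 0.54 ± 0.09 in rescue against empty vector (adjusted p = 6.4e-05). With libraries scaled by their totals only, the change in rescue against knockout was -0.15 and did not pass (adjusted p = 0.094).

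Tapbpl and Nlrc5 did not pass the test in knockout against empty vector. Tapbpl (chr6:125223933-125231860, minus strand) had 10.0, 9.42 and 8.68 CPM in rescue libraries, 15.0, 17.2 and 19.8 CPM in knockout libraries and 15.3, 13.4 and 15.0 CPM in empty-vector libraries. Knockout and empty-vector values overlapped (0.25 ± 0.11, adjusted p = 0.052), and rescue was lowest, at -0.89 ± 0.11 against knockout (adjusted p = 1.6e-06) and -0.64 ± 0.11 against empty vector (adjusted p = 1.3e-04). The first of these differences sat at the threshold: it passed without knockout replicate 1 (0.34, adjusted p = 0.014), without empty-vector replicate 1 (0.30, adjusted p = 0.025), with median-ratio size factors (0.28, adjusted p = 0.033) and with a stricter filter on low counts (0.26, adjusted p = 0.044). All of Tapbpl lies opposite Vamp1, which had 67 to 159 counts per library, and whether counting used strand is not stated, so some reads may belong to that gene.

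Nlrc5 (chr8:94434356-94527272, plus strand) was rare, with 12, 5 and 5 counts in rescue libraries, 35, 25 and 47 counts in knockout libraries and 39, 70 and 68 counts in empty-vector libraries. Scaled to library size this was 0.428, 0.274 and 0.314 CPM in rescue, 2.22, 2.07 and 1.98 CPM in knockout and 1.73, 4.5 and 2.73 CPM in empty vector. Empty-vector libraries spread on both sides of the knockout values, and rescue libraries lay below all others. The log2 fold change was -0.48 ± 0.29 in knockout against empty vector (adjusted p = 0.16), -2.55 ± 0.39 in rescue against knockout (adjusted p = 1.6e-05) and -3.03 ± 0.37 in rescue against empty vector (8.15-fold lower, adjusted p = 2.1e-06). Without empty-vector replicate 1 the difference in knockout against empty vector was -0.75 and passed (adjusted p = 0.014). Its mean was 2.09 ± 0.124 CPM in knockout and 2.99 ± 1.4 CPM in empty vector (SD, n = 3 each), and it was the 1 gene of the 10 with a lower mean in knockout.

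In rescue against knockout, all 10 genes were lower, with 10 of 10 showing no overlap between libraries and a median log2 fold change of -1.13, against 0.03 over all tested genes. In this comparison 27.3% of all tested genes were lower, 29.5% were higher and 65.3% had no overlap. The changes were larger than in knockout against empty vector for several members: the share of tested genes with a larger absolute change was 2.05% for Nlrc5, 2.42% for Tapbp, 2.83% for Tap1, 4.32% for Erap1 and 5.85% for Tap2, and 50.8% for Pdia3. The knockout libraries serve in both comparisons, so the values for each gene stand side by side and are not independent of each other. In rescue against empty vector, 6 of the 10 were lower, 1 (Pdia3) was higher and 3 (Tapbp, Calr and Canx) were not called. The median was -0.46, against -0.02 over all genes. The background here was 25.1% lower, 22.4% higher and 55.1% with no overlap, and 7 of the 10 had no overlap. Nlrc5 and Tap1 lay far out, with 0.345% and 2.03% of tested genes showing a larger absolute change.

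**Figure D2:**
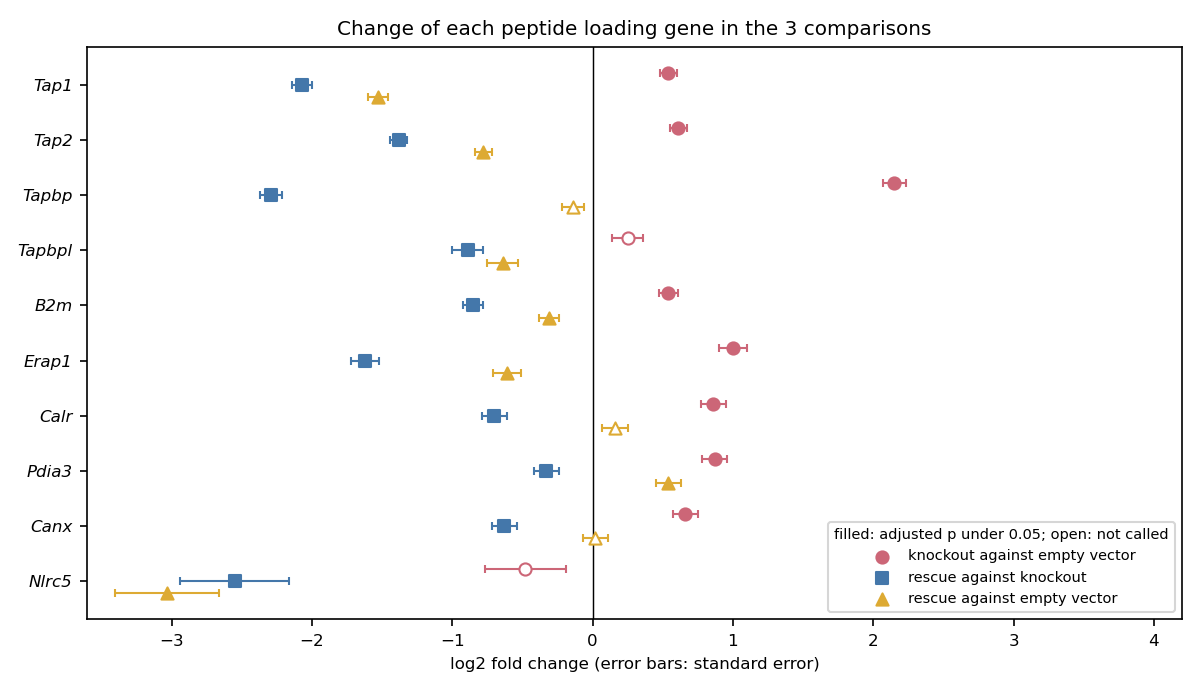
Log2 fold change (horizontal axis) of each gene in knockout against empty vector (circles), rescue against knockout (squares) and rescue against empty vector (triangles); bars are the standard error and open symbols did not pass the test. All squares lie left of 0, while the triangles range from -3.03 for Nlrc5 to 0.54 for Pdia3.

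Scaling matters for how these counts are read. With libraries scaled by their totals only, the median change of all genes moved by -0.15 in knockout against empty vector and by 0.18 in rescue against knockout, and the percentage of called genes that were higher was 34.4% in place of 48.7% and 69.6% in place of 51.9%. The direction of no loading gene turned under any scaling tried, and 8 of 10 genes higher in knockout and all but Pdia3 lower in rescue against knockout were still called with totals only.

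Ratios of FPKM values within a library show where members parted from each other; they are described without a test, since 3 libraries against 3 cannot go below p = 0.10 in an exact permutation test. Tapbp over Tap1 was 7.33, 7.1 and 6.9 in rescue libraries, 7.86, 8.41 and 8.48 in knockout libraries and 3.08, 2.35 and 2.7 in empty-vector libraries. Rescue and knockout cells thus both had more Tapbp mRNA per Tap1 mRNA than empty-vector cells, but through different changes. In knockout against empty vector Tapbp rose by 2.15 on the log2 scale and Tap1 by 0.54. In rescue against empty vector Tapbp was not called (-0.14) and Tap1 was lower (-1.53). The ratio of Tapbp to Tap2 was not taken. Tap2 over Tap1 was 1.97, 2.09 and 2.18 in rescue libraries, 1.26, 1.3 and 1.29 in knockout libraries and 1.22, 1.25 and 1.21 in empty-vector libraries. Rescue was the group in which the balance of the transporter chains differed most. Pdia3 over Calr was 0.641 ± 0.00992 in rescue, 0.497 ± 0.00149 in knockout and 0.492 ± 0.0234 in empty vector (SD, n = 3 each), and knockout and empty vector overlapped. Tapbp over its relative Tapbpl was 10.9 ± 0.434 in rescue, 29.2 ± 4.91 in knockout and 7.7 ± 0.451 in empty vector. B2m over Tap1 was 52.2 ± 4.14 in rescue, 22.2 ± 0.731 in knockout and 22.2 ± 2.25 in empty vector.

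**Figure D3:**
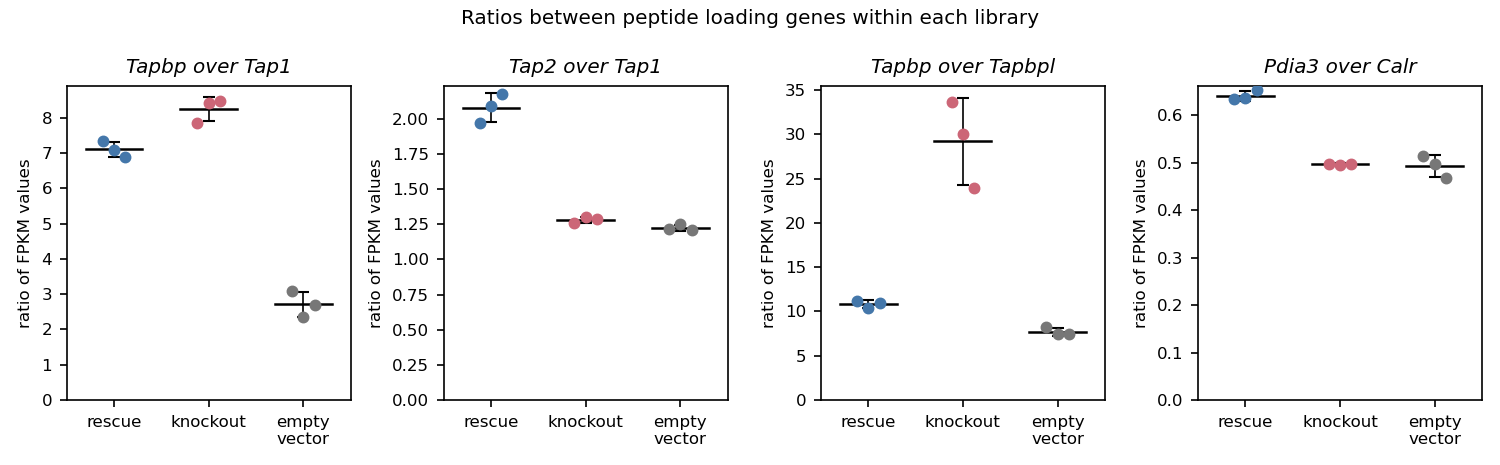
Ratio of FPKM values of the named genes within each library (vertical axis, from 0), for rescue, knockout and empty vector; points are libraries, lines are means and bars are the SD (n = 3). Tapbp over Tap1 is at least 6.9 in rescue and knockout libraries and at most 3.08 in empty-vector libraries, and Tap2 over Tap1 is highest in rescue.

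The members fell into patterns over the 9 libraries. As a measure of likeness, each gene's log2 CPM was centred on its mean and the root-mean-square difference between genes was taken over the 9 libraries. Calr and Canx were the closest pair (0.11), followed by B2m and Canx (0.15) and by Pdia3 and Calr (0.18). Tap2 was closest to Erap1 (0.21), nearer than to its partner Tap1 (0.35). Tapbp had no near match in the set, with Erap1 closest at 0.47, and Nlrc5 was closest to Tap1 at 0.71. Among 9664 other protein-coding genes with a mean of at least 5 CPM, those most like Tapbp were Plat (0.11), which encodes tissue plasminogen activator, Il4ra (0.13), a receptor chain for interleukin-4, and Metrnl (0.16), a secreted protein. Those most like Tap1 were Bst2 (0.09), Cyp4b1 (0.13) and Isg15 (0.18); Bst2 encodes tetherin and Isg15 a ubiquitin-like protein, and both are known as interferon-induced genes. Their log2 fold changes in rescue against knockout were -2.10 for Bst2, -2.05 for Cyp4b1 and -2.07 for Isg15.

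The surroundings of the loading genes were read to see whether their neighbours moved with them. Within 100 kb of the starts of the 10 genes lay 58 other tested genes, of which 17 were higher and 10 lower in knockout against empty vector, 14 higher and 9 lower in rescue against knockout, and 13 higher and 15 lower in rescue against empty vector. In knockout against empty vector this was 46.6% of the neighbours called in either direction, beside 29.5% higher and 31.1% lower over all tested genes. The shares were 39.7% in rescue against knockout (29.5% and 27.3% over all genes) and 48.3% in rescue against empty vector (22.4% and 25.1%). The neighbours of Tapbp were mixed: of 15, 4 were higher and 4 lower in knockout against empty vector. Those with the smallest adjusted p were Rps18 (a ribosomal protein gene, -0.49 ± 0.06, adjusted p = 1.8e-06), H2-K1 (a class I heavy chain, 0.50 ± 0.07, adjusted p = 8.0e-06), Vps52 (a membrane traffic gene, 0.45 ± 0.07, adjusted p = 2.5e-05) and the pseudogene H2-K2 (-1.59 ± 0.26, adjusted p = 2.5e-05). Daxx, the nearest tested coding gene upstream of Tapbp and named for its position, had -0.08 ± 0.06 (adjusted p = 0.25).

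Next to Tap1, the immunoproteasome genes had the same order of groups. Psmb9, whose start lies 211 bases from that of Tap1 on the opposite strand, had a log2 fold change of 0.55 ± 0.16 in knockout against empty vector (adjusted p = 0.0063) and -1.19 ± 0.17 in rescue against knockout (adjusted p = 7.6e-06). Psmb8, between Tap1 and Tap2, had 0.77 ± 0.07 (adjusted p = 2.7e-08) and -1.59 ± 0.08 (adjusted p = 1.9e-12). Psmb9 and Tap1 overlap by 212 bases. Farther out the pattern was mixed, also among class II genes. H2-Oa had 1.02 ± 0.16 in knockout against empty vector (adjusted p = 1.8e-05), while H2-Ab1 (-0.66 ± 0.14, adjusted p = 4.3e-04) and H2-DMa (-0.45 ± 0.13, adjusted p = 0.0071) were lower there. Around Pdia3, 2 neighbours were higher and 1 lower in knockout against empty vector. Ckmt1, a mitochondrial creatine kinase gene, had 3.39 ± 0.46 (adjusted p = 3.2e-06) at low levels, with a mean of 2.12 CPM in knockout and 0.18 CPM in empty vector. Ppip5k1 had 0.17 ± 0.06 (adjusted p = 0.017) and Wdr76 -1.04 ± 0.08 (adjusted p = 2.1e-09). Beside Calr, Dnase2a had 0.65 ± 0.08 (adjusted p = 1.5e-06) and Gadd45gip1 0.46 ± 0.11 (adjusted p = 0.0015). Maml1, beside Canx, had -0.28 ± 0.09 (adjusted p = 0.0097).

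**Figure D4:**
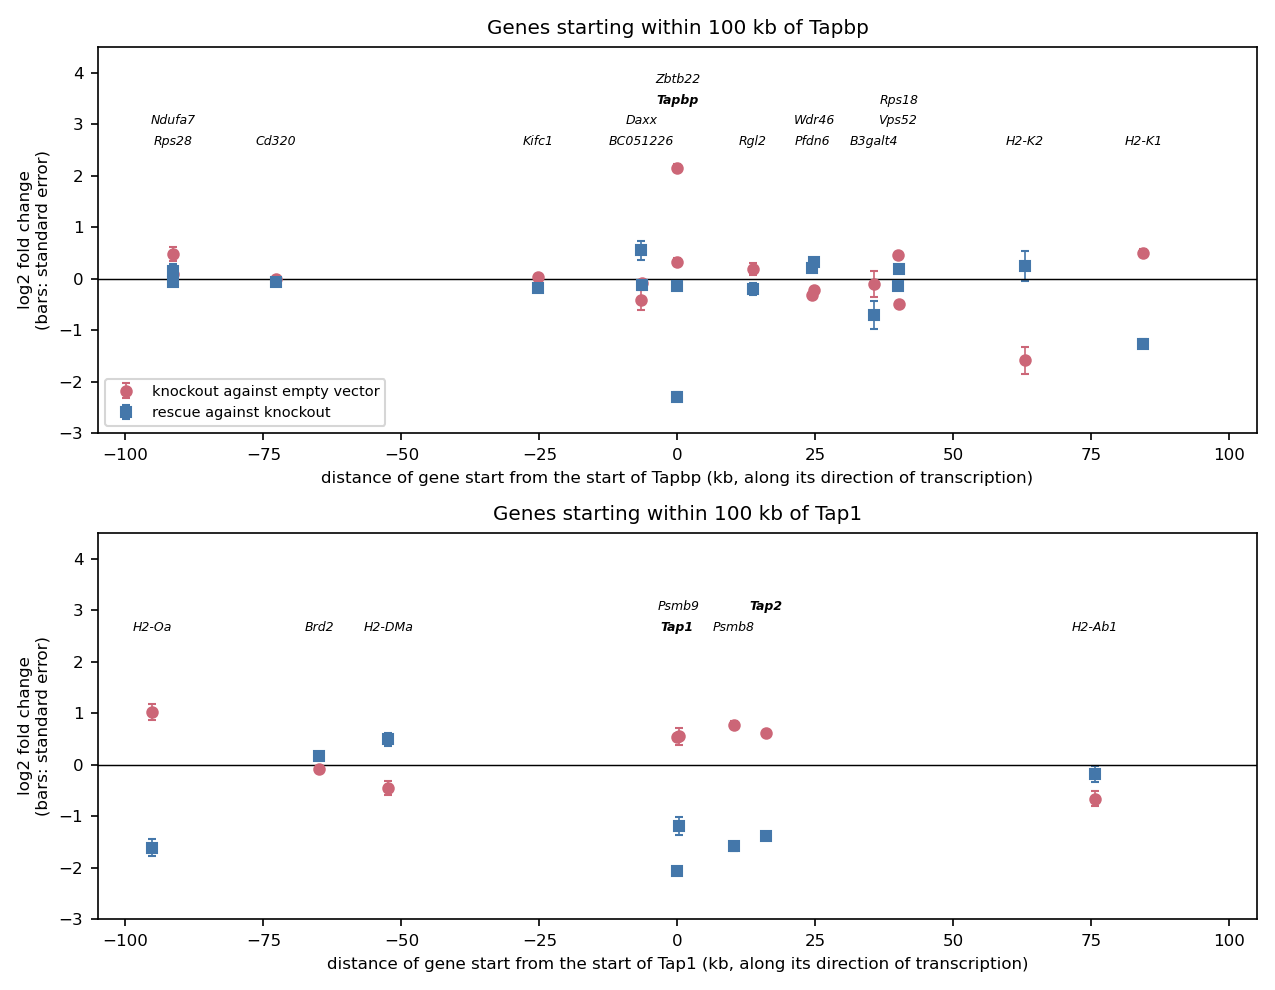
Log2 fold change (vertical axis, bars are the standard error) of tested genes against the distance of their start from that of Tapbp (top) or Tap1 (bottom) in kb, in knockout against empty vector (circles) and rescue against knockout (squares); bold names are loading genes. Tapbp at 2.15 stands far above its neighbours, while Tap1, Psmb9, Psmb8 and Tap2 lie together at 0.54 to 0.77 in knockout against empty vector.

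The molecules that the machinery loads were followed next. Beside this and the following lists stand the shares of all tested genes, which were 29.5% higher and 31.1% lower in knockout against empty vector. The shares were 29.5% and 27.3% in rescue against knockout, and 22.4% and 25.1% in rescue against empty vector. No list was tested as a set. Of 8 tested class I heavy chain genes, 4 were higher and 4 not called in knockout against empty vector (median 0.41), all 8 were lower in rescue against knockout (median -1.09) and 6 were lower in rescue against empty vector (median -0.84). H2-T23, which encodes the non-classical molecule Qa-1, had the largest changes of these genes, at 1.97 ± 0.09 (adjusted p = 8.0e-13), -3.86 ± 0.10 (adjusted p = 8.3e-16) and -1.88 ± 0.11 (adjusted p = 1.7e-10) in the 3 comparisons in that order. H2-K1, a classical heavy chain, had -1.26 ± 0.08 in rescue against knockout (adjusted p = 4.6e-11). H2-D1, also a classical one, did not pass in knockout against empty vector (-0.12 ± 0.07, adjusted p = 0.13) and had -0.77 ± 0.07 in rescue against knockout (adjusted p = 1.3e-08). H2-L, a further heavy chain that was looked for, was not found among the deposited genes. H2-Q4 had 0.03 ± 0.08 (adjusted p = 0.73) and -1.02 ± 0.08 (adjusted p = 3.4e-09), H2-T22 had 0.71 ± 0.10 (adjusted p = 2.9e-06) and -0.86 ± 0.10 (adjusted p = 3.1e-07), and H2-T10 had 0.81 ± 0.26 (adjusted p = 0.01; 0.074 without knockout replicate 2) and -1.15 ± 0.26 (adjusted p = 9.5e-04). Several genes of this family are close copies of each other and differ between mouse strains, and the reference is C57BL/6. The split of reads among such copies is therefore uncertain.

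The genes of peptide supply had mixed directions, apart from the immunoproteasome subunits. Tested genes at large were split too, with 29.5% higher and 31.1% lower in knockout against empty vector and 29.5% and 27.3% in rescue against knockout. Of 10 proteasome subunits and activators, 4 were higher and 2 lower in knockout against empty vector, and 4 were higher and 3 lower in rescue against knockout. The higher ones in knockout were the immunoproteasome subunits Psmb8, Psmb9 and Psmb10 (0.55 ± 0.10, adjusted p = 8.6e-05) and the activator subunit Psme1 (0.24 ± 0.07, adjusted p = 0.0045; 0.32 with library totals only). The lower ones were the nuclear activator Psme3 (-0.52 ± 0.06, adjusted p = 5.7e-07) and the constitutive subunit Psmb6 (-0.15 ± 0.06, adjusted p = 0.028). Psmb6 did not pass without knockout replicate 1, without empty-vector replicates 1 or 3, with median-ratio size factors or with DESeq2 (adjusted p 0.059 to 0.081), and Psmb9 did not pass without knockout replicate 2 (adjusted p = 0.059). In rescue against knockout Psmb8, Psmb9 and Psmb10 were lower (Psmb10 -0.35 ± 0.10, adjusted p = 0.0049; 0.15 with library totals only). In that comparison Psmb6 (0.33 ± 0.06, adjusted p = 5.5e-05) and the assembly factor Pomp (0.30 ± 0.06, adjusted p = 2.0e-04) were higher. Of 11 other peptide-trimming peptidases, 3 were higher and 3 lower in knockout against empty vector (median -0.03), and 3 were higher and 2 lower in rescue against knockout (median 0.05; 1 higher without knockout replicate 2). In knockout against empty vector the peptidase counts were near the shares of all genes. Lnpep, an endosomal relative of Erap1, had 0.54 ± 0.07 (adjusted p = 3.3e-06) and -0.84 ± 0.07 (adjusted p = 1.3e-08), the same directions as Erap1. Dpp9 rose in knockout against empty vector (0.46 ± 0.06, adjusted p = 3.0e-06) and had -0.06 ± 0.06 in rescue against knockout (adjusted p = 0.47).

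The wider machinery of folding in the ER moved in the direction of Calr and Canx more often than not. Of 21 genes of glycoprotein folding and quality control, 13 were higher and 2 lower in knockout against empty vector (median 0.40), 1 was higher and 18 were lower in rescue against knockout (median -0.53), and 3 were higher and 11 lower in rescue against empty vector (median -0.25). The 1 higher gene was lost without knockout replicate 1 or 3. Among all tested genes, 29.5% were higher and 31.1% lower in knockout against empty vector. Their shares were 29.5% and 27.3% in rescue against knockout, and 22.4% and 25.1% in rescue against empty vector. Dnajb11, an ER co-chaperone, had 1.26 ± 0.07 in knockout against empty vector (adjusted p = 1.2e-11) and -0.89 ± 0.07 in rescue against knockout (adjusted p = 1.4e-09). Uggt1, the folding sensor that returns glycoproteins to calnexin and calreticulin, had 0.87 ± 0.08 (adjusted p = 3.0e-08) and -0.96 ± 0.08 (adjusted p = 8.2e-09). The co-chaperone genes Sdf2l1 (0.62 ± 0.06, adjusted p = 7.2e-08) and Dnajc3 (0.64 ± 0.07, adjusted p = 8.7e-08) were also higher in knockout. The main ER chaperone gene, Hspa5, went the other way in knockout against empty vector (-0.64 ± 0.08, adjusted p = 1.3e-06), and had -0.25 ± 0.08 in rescue against knockout (adjusted p = 0.014), which did not pass without rescue replicates 1 or 2, without knockout replicates 1 or 2, or with library totals only (adjusted p 0.051 to 0.48). Sec61a1, of the channel through which proteins enter the ER, had -0.97 ± 0.06 in rescue against knockout (adjusted p = 1.4e-10). The glucosidase genes Mogs (-0.89 ± 0.06, adjusted p = 5.3e-10) and Ganab (-0.87 ± 0.07, adjusted p = 1.2e-09) had similar values.

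Known regulators of class I genes were divided, as were tested genes at large (29.5% higher and 31.1% lower in knockout against empty vector). For all genes the shares were 29.5% and 27.3% in rescue against knockout, and 22.4% and 25.1% in rescue against empty vector. Of the 22 regulators, 9 were higher and 6 lower in knockout against empty vector (median 0.12). In rescue against knockout 4 were higher and 10 lower (median -0.13), and in rescue against empty vector 4 were higher and 8 lower. Among those higher in knockout were genes of interferon signalling, Stat2 (0.69 ± 0.07, adjusted p = 1.0e-07) and the receptor chain Ifnar2 (0.60 ± 0.07, adjusted p = 1.8e-07). In rescue against knockout Ifnar2 had -1.09 ± 0.07 (adjusted p = 5.9e-11), Irf9 -1.15 ± 0.08 (adjusted p = 2.6e-10) and Ifnar1 -0.85 ± 0.07 (adjusted p = 8.1e-09). Irf9 was also lower in knockout than in empty vector (-0.40 ± 0.07, adjusted p = 8.5e-05), as was Rela (-0.36 ± 0.06, adjusted p = 6.2e-05). Nfyb, a subunit of the factor that binds the Y box, had -0.78 ± 0.08 (adjusted p = 9.0e-08), and Atf6, a sensor of ER stress, had -0.92 ± 0.07 (adjusted p = 1.3e-09), both in knockout against empty vector.

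**Figure D5:**
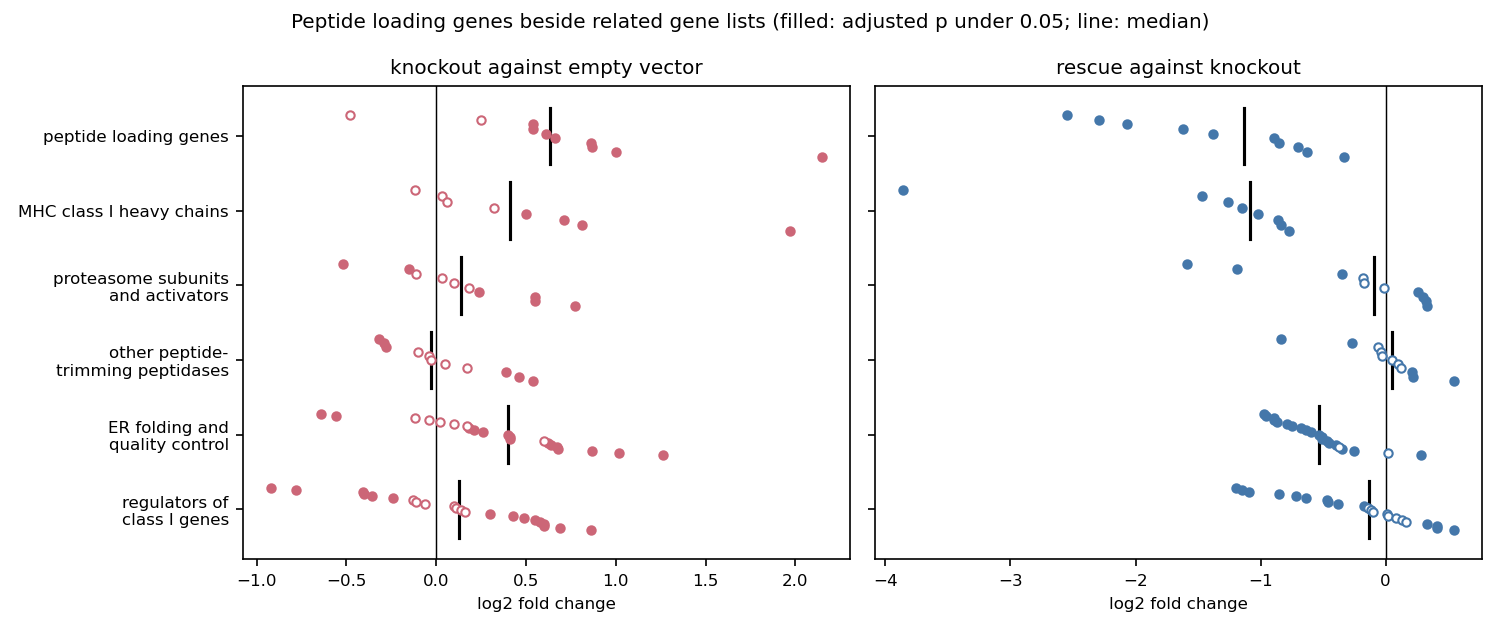
Log2 fold change (horizontal axis) of the 10 peptide loading genes and of the tested genes of 5 related lists, in knockout against empty vector (left) and rescue against knockout (right); each point is a gene, filled where it passed the test, and the black line is the median of the list. The loading genes have medians of 0.63 and -1.13, the class I heavy chains 0.41 and -1.09, and the peptidases -0.03 and 0.05.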

How the data were processed

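RNA of 9 libraries, 3 in each of 3 groups, was measured. Per the submitters' processing notes, CASAVA, HISAT2, HISAT and TopHat2 were used, with no roles or versions, and the build was mm10. Raw counts per gene were deposited by the authors as whole numbers, per the file headers and values; the read counter and the strand setting are not given in the sources used here. The authors also deposited FPKM values per library, per the file headers, used here for levels and ratios only, and gene lengths and coordinates. The authors' deposited log2 fold changes and their p-values, per the file headers, were compared with the present ones: all 30 values of the loading genes had the same sign and the same call, and the largest difference was 0.05. The labelled molecule, genomic DNA, does not match the mRNA protocol, and the series text gives knockout fewer libraries than the 3 held in the labels and the table; all 3 were used.

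Tests used edgeR 4.0.16 (R 4.3.3): filterByExpr kept 13326 of 54532 genes, TMM factors scaled the libraries, and 1 robust quasi-likelihood model of the 3 groups took in all 9 libraries, with Benjamini-Hochberg adjustment over all tested genes and a threshold of 0.05. Standard errors were taken as |log2 fold change| over the root of the F statistic. CPM use the TMM-scaled library sizes. DESeq2 1.42.0, other scalings and filters, fits to the compared groups only, the replicate number as a block and leaving out each library were alternatives. The test was also run on simulated data in which few genes were changed, unlike the broad differences here. It recovered 67.2% to 71.6% of 1.5-fold changes and 95.5% to 100% of 4-fold changes. False calls were 10 of 171 for knockout against empty vector, 10 of 176 for rescue against knockout and 13 of 175 for rescue against empty vector. Replicates of a group differed by more than sampling (chi-square over its degrees of freedom, 3.64 to 20.3). The labels do not say that replicates came from separate cultures, so the spread behind the p-values may be technical and is that of these libraries only.

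The loading genes, the related lists and the tests were chosen with earlier results of these data known. All 10 loading genes are named; of each related list up to 4 genes with the smallest adjusted p in each comparison were eligible, of neighbours within 100 kb up to 4 per called gene in knockout against empty vector, and the 3 genes most like Tapbp and Tap1. Some eligible genes are left to the counts, and some are not reported here. Zbtb22, Vamp1 and Daxx were added for their position. Promoter sequences are from RefSeq (GRCm38.p6) and transcripts from GENCODE; counts of 0 and low counts were read as counts, with no interval.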

Additional observations from a re-analysis of the deposited data

How the results depend on the processing

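The call was kept in 470 of 480 values of single loading genes over the alternatives and libraries left out; 9 others passed only under an alternative, and 1 (Pdia3, above) was lost. The sign turned in 1 value, that of Canx in rescue against empty vector, which was not called (0.02, and -0.07 without empty-vector replicate 2). With library totals only, 2 loading genes in place of 1 were higher in rescue against empty vector, and 5916 genes in place of 3928 were higher in rescue against knockout. Leaving out a library gave 0 to 1 loading genes lower in knockout against empty vector and 1 to 3 higher in rescue against empty vector; both upper values came without empty-vector replicate 1. In the related lists, library totals only moved the peptidases to 6 lower (main 3) in knockout against empty vector and to 8 higher (main 3) and 1 lower (main 2) in rescue against knockout, regulators to 8 higher (main 4) there, and ER folding genes to 4 lower (main 2) in knockout against empty vector and 2 higher (main 1) in rescue against knockout; heavy chains had 1 lower (main 0) in knockout against empty vector with it and with no filter. Of the ER folding genes higher in knockout against empty vector, P4hb, Sec61a1 and Syvn1 were lost with library totals only (edgeR adjusted p = 0.19, 0.4 and 0.76). Smaller moves of other list counts are not listed. The cause was not tested. The order of levels was the same by CPM per kilobase, and the share of neighbours called in knockout against empty vector was 41.9% at 50 kb, 46.6% at 100 kb and 50.8% at 250 kb.

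Equal replicate numbers did not pair libraries: deviations correlated across genes at -0.16 to 0.05 in the 9 same-numbered pairs, and at -0.10 to 0.10 in 18 others, and 0 libraries correlated best with their own number. With the replicate block, 8 loading genes were higher in knockout against empty vector and 10 lower in rescue against knockout, as without it. Nlrc5 rests on 5 to 70 counts per library, which limits its precision. Effects of the edit and differences between clones cannot be told apart. In rescue against knockout, the lentiviral vector and the puromycin selection, labelled for rescue only, cannot be told apart from the return of Ndufa4l2.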

Other observations

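Genes of MHC class II loading, which act in the endosomal route, had mixed directions. Of 10 listed, 4 had enough counts to be tested; 1 was higher and 3 lower in knockout against empty vector, and 2 were higher and 1 lower in rescue against knockout. Across all tested genes, 29.5% were higher and 31.1% lower in the first comparison, and 29.5% and 27.3% in the second. Cd74, the invariant chain, had -1.14 ± 0.06 on the log2 scale in knockout against empty vector (edgeR, adjusted p = 1.2e-11) and 0.26 ± 0.06 in rescue against knockout (adjusted p = 0.0012). H2-DMa had -0.45 ± 0.13 (adjusted p = 0.0071) and 0.49 ± 0.13 (adjusted p = 0.0038). Ifi30, a lysosomal thiol reductase, had the opposite signs, which are those of most class I loading genes, at 1.40 ± 0.07 (adjusted p = 6.3e-12) and -1.08 ± 0.07 (adjusted p = 1.8e-10). The class II transactivator Ciita was too rare to be tested.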
